A study of Mus musculus with 6 samples.

Results

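The genes described here are the cadherins and protocadherins of mouse glioblastoma (GBM) neurospheres, in cultures labelled ATRX knockout (ATRX KO) and cultures labelled ATRX wild type (ATRX WT). They were taken by symbol from the deposited expression table, namely every row named Cdh with a number, Pcdh with any ending, or Dsc or Dsg with a number. This gave 58 of 13069 genes, of which 12 are cadherins, 36 are clustered protocadherins and 10 are protocadherins outside the clusters. No desmocollin or desmoglein row was found, and no row for Cdh1 or Cdh3, the cadherins of epithelia, so these genes are not analysed here. Each genotype had 3 libraries of messenger RNA. Per the labels, the tumours came from immune-competent newborn mice, C57BL/6 or FVB, whose ventricles received Sleeping Beauty plasmids, and the cultures were kept in a neural stem cell medium (B-27 and N-2 supplements, FGF, EGF). Both genotypes carried a short hairpin against p53 and a plasmid that overexpresses NRAS, and a short hairpin against ATRX was present or absent. The labels thus name both a hairpin and a knockout for ATRX, and do not say which strain either line came from. The design text calls the libraries biological replicates, but their titles give 1 line code per genotype, so the effects of genotype and of line cannot be told apart. The p-values below therefore measure the spread between libraries of 1 line each, which may be technical.

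Cadherins are membrane proteins that bind cadherins of the neighbouring cell through repeats that hold calcium. Classical cadherins bind catenins with their tails and so join the membrane to actin. Which of them a cell makes helps decide which cells it adheres to, and N-cadherin, the product of Cdh2, is the main classical cadherin of neural stem cells. Protocadherins have more of the repeats and do not bind catenins. Those of the Pcdha, Pcdhb and Pcdhg clusters are chosen promoter by promoter in each neuron and give it a surface identity, while those outside the clusters mark regions and cell populations of the developing brain.

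The table held 22177228 to 32477269 reads per ATRX KO library and 34966108 to 38039847 per ATRX WT library. Levels are given in RPKM, reads per kilobase of gene normalised to the size of the library, and differences on the log2 scale as ATRX KO minus ATRX WT. Of 12201 genes that passed a filter on low values, 43.6% rose and 45.9% fell in ATRX KO, 89.5% in all, with limma and a Benjamini-Hochberg adjusted p under 0.05, which is what "rose" and "fell" mean throughout. Against a log2 difference of at least 1, limma's treat test called 15.4% higher and 17.2% lower, 32.6% in all. The 3 values of one genotype did not overlap those of the other for 90.5% of genes tested. Atrx itself had 14.1, 16.6 and 17.1 RPKM in the ATRX KO libraries, against 22.3, 22.7 and 21.5 RPKM in ATRX WT, so its transcript was present in every library. Markers of neural and glioma cells summed to 92.6 to 98.0 RPKM in ATRX KO, against 3132 to 3203 RPKM in ATRX WT, with 7 of 9 tested lower, 2 higher, and Olig1 and Dcx at 0 reads in ATRX KO. Fibroblast and mesenchymal markers summed to 1166 to 1336 RPKM in ATRX KO, against 2.42 to 2.73 RPKM in ATRX WT, and 6 of 6 tested rose. Of 9 microglia and macrophage markers only 2 were in the table, and Ptprc, Aif1, Cx3cr1, Csf1r, Itgam, Adgre1 and P2ry12 had no row. These 2 summed to 30.6 to 35.1 RPKM in ATRX KO, against 5.52 to 6.28 RPKM in ATRX WT, and 2 of 2 tested rose. Of the epithelial markers only 1 was in the table, untested, with a mean of 0.468 RPKM in ATRX KO and 0.0102 RPKM in ATRX WT. The part of these markers in the results below was not tested, and in bulk RNA fewer cells that use a gene cannot be told from less RNA in each cell.

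Taken as a family, cadherins and protocadherins were at lower levels in ATRX KO. Their summed level was 148 ± 2.59 RPKM in ATRX KO, against 426 ± 0.386 RPKM in ATRX WT (SD, n = 3 each). Of the 58 members, 12 reached a mean log2 RPKM of 0 in both genotypes, 7 in ATRX KO alone, 25 in ATRX WT alone and 14 in neither. The filter let 43 members into the test, of which 7 rose, 34 fell and 2 gave no call. Of all genes tested, 43.6% rose and 45.9% fell. Past a log2 difference of 1 the treat test called 7 higher and 30 lower, beside 15.4% and 17.2% of all genes tested. For 41 of the 43 the genotypes did not overlap, a share near that of all genes tested. The median difference of the 43 was -3.69, and the median size of their differences was 4.27, beside a median of -0.02 and a median size of 0.68 for all genes tested. A member that passes the filter through one genotype alone is bound to differ, so these counts describe the tested members and not the family. In ATRX KO 8 of the 58 members had 0 reads, against 1.55% of all genes in the table. In ATRX WT none of the 58 had 0 reads, and only 19 of all 13069 genes had.

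Both type I classical cadherins in the table were lower in ATRX KO. Cdh2, the neural cadherin, had 15.2, 16.3 and 15.0 RPKM in ATRX KO libraries 1 to 3, against 51.4, 50.3 and 49.8 RPKM in ATRX WT. All ATRX KO libraries lay below all ATRX WT libraries, and each genotype spread by less than 2 RPKM. The log2 difference of Cdh2 was -1.70 (SE 0.038, adjusted p in limma = 5.4e-10), a fall to 30.7% of the ATRX WT level. Cdh4, the retinal cadherin, which pairs with N-cadherin in the developing brain, had 0.964, 0.927 and 0.897 RPKM in ATRX KO, against 40.8, 41.9 and 42.5 RPKM in ATRX WT. It was thus near the level of Cdh2 in ATRX WT and near the filter in ATRX KO, a fall of 5.47 (SE 0.049, adjusted p = 4.9e-12). Of the neural and glioma markers named above, 7 of 9 were lower and 2 higher in the same libraries, and their part was not tested.

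Type II cadherins, which act in the sorting of neurons and of mesenchymal and vascular cells, went in both directions. All 8 in the table were tested, and 6 fell and 2 rose, where 89.5% of all genes tested rose or fell. Cdh6, known from kidney and from boundaries in the early forebrain, was the most abundant of them in both genotypes, with 15.4, 14.1 and 15.4 RPKM in ATRX KO, against 32.3, 32.4 and 32.5 RPKM in ATRX WT (log2 difference -1.11, SE 0.041, adjusted p = 1.1e-08). Cdh20, a cadherin of the neural tube, had 0 reads in every ATRX KO library, against 2530, 2589 and 2644 reads in ATRX WT. With 3 reads over the group as the most that a count of 0 allows, Cdh20 was at least 1696-fold lower in ATRX KO. The other falls began from low levels in ATRX KO as well. Cdh22, a cadherin of pituitary and brain, had 8 reads in ATRX KO against 3960 in ATRX WT, a fall of 7.70 (SE 0.14), and Cdh19, a marker of Schwann cell precursors, had 30 reads in ATRX KO against 2060 in ATRX WT, a fall of 5.27 (SE 0.10). Cdh10, a cadherin of forebrain neurons, had 2 reads in ATRX KO against 1237 in ATRX WT, and its level in ATRX WT over that in ATRX KO was 405 (95% counting interval 112 to 3351). Cdh24 was the least changed, at 1.97, 2.03 and 2.00 RPKM in ATRX KO, against 3.52, 3.23 and 3.53 RPKM in ATRX WT, and its fall of 0.77 (SE 0.067) did not pass the test against a log2 difference of 1.

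The 2 type II cadherins that rose were Cdh5 and Cdh11. Cdh5, the cadherin of endothelial junctions (chromosome 8, 104101625 to 104144511, plus strand, GRCm38), had 646, 649 and 469 reads in ATRX KO, against 2, 6 and 4 reads in ATRX WT. That is 5.36, 6.22 and 5.67 RPKM in ATRX KO, each far above any ATRX WT library, and a rise of 7.19 (SE 0.21, adjusted p = 2.6e-09). Of the endothelial markers, Emcn rose by 5.41 while Esam fell by 4.28, Kdr was untested with 100 reads in ATRX KO against 189 in ATRX WT, and Pecam1, Tek, Tie1, Cldn5, Vwf and Erg are not among the rows. The 3 that are summed to 9.15 to 10.3 RPKM in ATRX KO, against 2.03 to 2.53 RPKM in ATRX WT, and their part in the level of Cdh5 was not tested. Cdh11, the cadherin of osteoblasts and loose mesenchyme (chromosome 8, 102632095 to 102785642, minus strand), stood at 4.95, 5.60 and 5.21 RPKM in ATRX KO, against 0.259, 0.269 and 0.287 RPKM in ATRX WT. The groups did not overlap, and the rise of 4.20 (SE 0.091, adjusted p = 4.3e-10) made Cdh11 19.3-fold higher. Fibroblast markers were high in the same libraries, which with 2 groups is so for any genes that rose, and their part was not tested.

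Cdh13, or T-cadherin, is tied to the membrane by a lipid anchor and has no tail for catenins. It had 3.46, 3.55 and 3.64 RPKM in ATRX KO, against 45.4, 46.2 and 46.9 RPKM in ATRX WT, so it was 13.0-fold lower with no overlap (log2 difference -3.69, SE 0.037, adjusted p = 7.9e-12). Cdh23, which forms the tip links of hair cells together with Pcdh15, was near the floor in both genotypes, with 102 reads in ATRX KO against 90 in ATRX WT, and was not tested. Summed over the 12 cadherins, levels were 48.2 ± 0.690 RPKM in ATRX KO, against 210 ± 1.22 RPKM in ATRX WT (SD, n = 3 each).

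**Figure D1:**
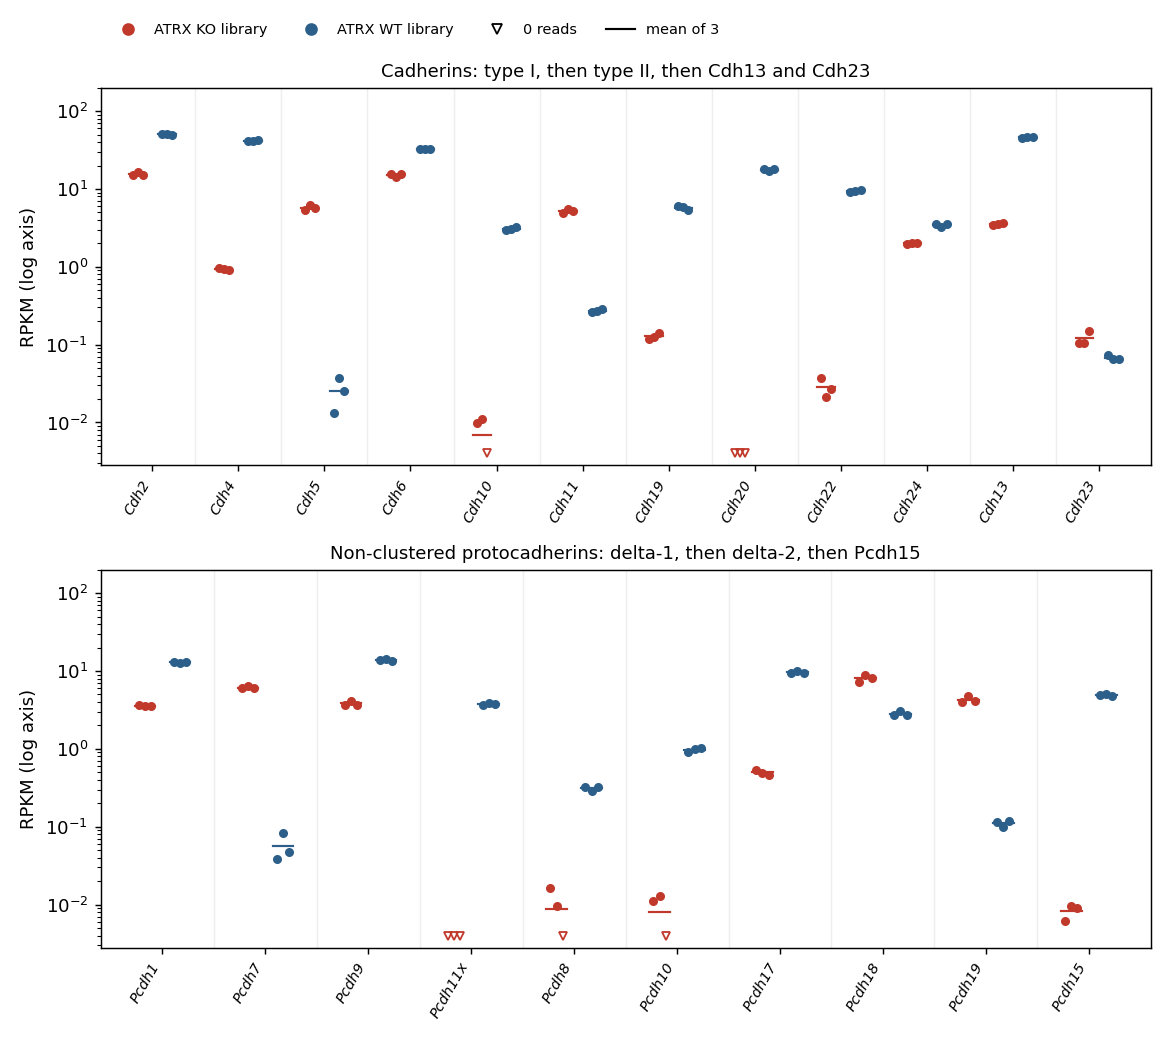
Level of each cadherin (top) and each protocadherin outside the clusters (bottom) in RPKM on a log axis, with 1 point per library, ATRX KO left of ATRX WT, bars at the mean of 3 and open triangles for 0 reads. Cdh5, Cdh11, Pcdh7, Pcdh18 and Pcdh19 stand higher in ATRX KO, and Cdh20 and Pcdh11x have 0 reads there.

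By mean share Cdh2 led the cadherins in both genotypes, and the order below it changed in part. In ATRX KO libraries 1 and 3, however, Cdh6 was slightly above Cdh2, with 32.4% against 32.0% and 32.0% against 31.1%. In ATRX KO library 2 Cdh6 was below, with 28.7% against 33.3%. Cdh2 took 32.1% of cadherin RPKM in ATRX KO, against 24.0% in ATRX WT, and Cdh6 took 31.0% in ATRX KO, against 15.4% in ATRX WT. In ATRX KO the next were Cdh5 with 11.9%, Cdh11 with 10.9% and Cdh13 with 7.37%. In ATRX WT they were Cdh13 with 21.9%, Cdh4 with 19.8% and, after Cdh6, Cdh20 with 8.42%. Cdh5 and Cdh11 together were under 1% of cadherin RPKM in ATRX WT, at 0.0120% and 0.129%. The effective number of cadherins, which is the inverse of the summed squared shares, was 4.20 to 4.35 in ATRX KO libraries and 5.57 to 5.60 in ATRX WT libraries. Shares are relative, so Cdh2 and Cdh6 took larger shares in ATRX KO although both fell.

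Of the protocadherins outside the clusters, 8 of 10 were tested, and 3 rose and 5 fell. Of all genes tested, 43.6% rose and 45.9% fell. Their summed level was 26.5 ± 1.41 RPKM in ATRX KO, against 49.6 ± 0.932 RPKM in ATRX WT. The delta-1 members, which carry a tail motif that binds protein phosphatase 1, include 1 rise and 3 falls. Pcdh7 (chromosome 5, 57717967 to 58133230, plus strand) had 6.04, 6.36 and 5.99 RPKM in ATRX KO, against 0.0381, 0.0839 and 0.0472 RPKM in ATRX WT. Its groups were far apart, and its rise of 6.67 (SE 0.24, adjusted p = 8.6e-09) is 109-fold in RPKM. Pcdh1, an adhesion protein known best from airway epithelium, had 3.68, 3.53 and 3.56 RPKM in ATRX KO, against 13.2, 12.6 and 13.0 RPKM in ATRX WT. Pcdh9, a protocadherin of cortical neurons, had 3.70, 4.11 and 3.71 RPKM in ATRX KO, against 14.0, 14.4 and 13.5 RPKM in ATRX WT. Both fell by much the same amount, Pcdh1 by 1.85 (SE 0.045) and Pcdh9 by 1.86 (SE 0.056), without overlap. Pcdh11x, the X-linked member, had 0 reads in every ATRX KO library, against 1224, 1381 and 1303 reads in ATRX WT, and was at least 854-fold lower.

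The delta-2 protocadherins regulate actin through the WAVE complex and sort axons and migrating cells. Of the 3 that were tested 2 rose and 1 fell, beside 43.6% and 45.9% of all genes tested. Pcdh19, whose human counterpart is mutated in an epilepsy of girls (mouse chromosome X, 133582860 to 133688987, minus strand), had 4.02, 4.73 and 4.07 RPKM in ATRX KO, against 0.114, 0.0981 and 0.120 RPKM in ATRX WT. Every ATRX KO library was above every ATRX WT library, and Pcdh19 rose by 5.20 (SE 0.12, adjusted p = 7.1e-10), or 38.6-fold. Pcdh18, which binds the reelin adaptor Dab1 (chromosome 3, 49743296 to 49757325, minus strand), had 7.30, 8.77 and 8.22 RPKM in ATRX KO, against 2.70, 3.04 and 2.69 RPKM in ATRX WT. It rose by 1.52 (SE 0.082, adjusted p = 1.6e-07), or 2.88-fold, and unlike the other rises it was well above the filter in both genotypes. Pcdh17, of the circuits between cortex and basal ganglia, went the other way, with 0.542, 0.494 and 0.461 RPKM in ATRX KO, against 9.56, 10.1 and 9.50 RPKM in ATRX WT (log2 difference -4.27, SE 0.081, adjusted p = 2.1e-10). Pcdh10, a guide of striatal and olfactory axons, had 8 reads in ATRX KO against 1352 in ATRX WT, and Pcdh8, which activity induces at synapses, had 3 reads in ATRX KO against 147 in ATRX WT. Neither passed the filter, and the level of Pcdh8 in ATRX WT was 32.1 times that in ATRX KO (95% counting interval 10.8 to 157). The summed level of the 5 delta-2 genes was 12.9 ± 1.08 RPKM in ATRX KO, against 13.9 ± 0.537 RPKM in ATRX WT, so the lower levels of 3 members stood beside higher levels of the other 2.

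The promoters of the 3 tested delta-2 genes are shown because they hold the same 8 letters although the genes went in opposite directions. They are RefSeq sequences on GRCm38.p6, from 250 bases before to 50 after the start site, read 5' to 3' in the direction of the gene. They lie at chrX:133688944-133689243 (minus strand) for Pcdh19, chr3:49757267-49757566 (minus strand) for Pcdh18 and chr14:84443313-84443612 (plus strand) for Pcdh17. Capitals mark the CCAAT box, which reads ATTGG where it lies on the opposite strand.
Pcdh19: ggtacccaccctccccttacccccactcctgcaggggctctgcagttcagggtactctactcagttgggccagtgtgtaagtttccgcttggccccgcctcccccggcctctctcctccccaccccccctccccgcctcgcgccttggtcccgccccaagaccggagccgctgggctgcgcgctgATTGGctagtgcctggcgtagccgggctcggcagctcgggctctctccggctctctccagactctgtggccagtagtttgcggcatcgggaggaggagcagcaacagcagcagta
Pcdh18: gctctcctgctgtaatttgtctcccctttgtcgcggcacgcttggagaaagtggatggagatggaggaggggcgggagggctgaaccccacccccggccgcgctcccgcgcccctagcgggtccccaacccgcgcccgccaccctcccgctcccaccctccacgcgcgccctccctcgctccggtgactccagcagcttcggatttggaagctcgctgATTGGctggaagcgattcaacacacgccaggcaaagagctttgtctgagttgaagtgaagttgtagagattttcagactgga
Pcdh17: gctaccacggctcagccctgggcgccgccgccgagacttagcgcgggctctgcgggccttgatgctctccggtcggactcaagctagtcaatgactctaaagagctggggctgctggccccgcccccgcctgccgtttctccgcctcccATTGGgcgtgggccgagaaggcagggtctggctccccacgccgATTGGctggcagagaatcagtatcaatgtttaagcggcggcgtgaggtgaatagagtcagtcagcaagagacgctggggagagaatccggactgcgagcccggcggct
Of the 58 members, 14 had an entry in that table. CCAAT on either strand stood in the window of 5 of 5 delta-2 genes and 3 of 9 other members, beside 37.4% of 32851 promoters of the same length. The longer AGCCAATC, which contains the CCAAT just counted, stood in 3 of 5 delta-2 genes, namely Pcdh17, Pcdh18 and Pcdh19. It was absent from Pcdh8 and Pcdh10 and stood in 0 of 9 other members, beside 3.84% of all promoters. In all 3 it lay on the opposite strand, beginning 66 bases before the start site in Pcdh19, 33 in Pcdh18 and 59 in Pcdh17. CAGGTG, the E-box that SNAI and ZEB factors bind, stood in 0 of 5 delta-2 genes and 2 of 9 other members, beside 20.2% of all promoters. The motifs were chosen after the values were seen, and a match describes the letters in this window and nothing more.

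Pcdh15, the partner of Cdh23 in tip links, had 3, 4 and 3 reads in ATRX KO, against 2951, 3321 and 3000 reads in ATRX WT. It was 595-fold lower in RPKM, a fall of 8.68 (SE 0.16, adjusted p = 2e-10), while Cdh23 was near the floor in both genotypes. Among the protocadherins outside the clusters the leading genes therefore changed. Pcdh18 with 30.6%, Pcdh7 with 23.2% and Pcdh19 with 16.1% of their RPKM led in ATRX KO. In ATRX WT the leaders were Pcdh9 with 28.2%, Pcdh1 with 26.1% and Pcdh17 with 19.6%.

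**Figure D2:**
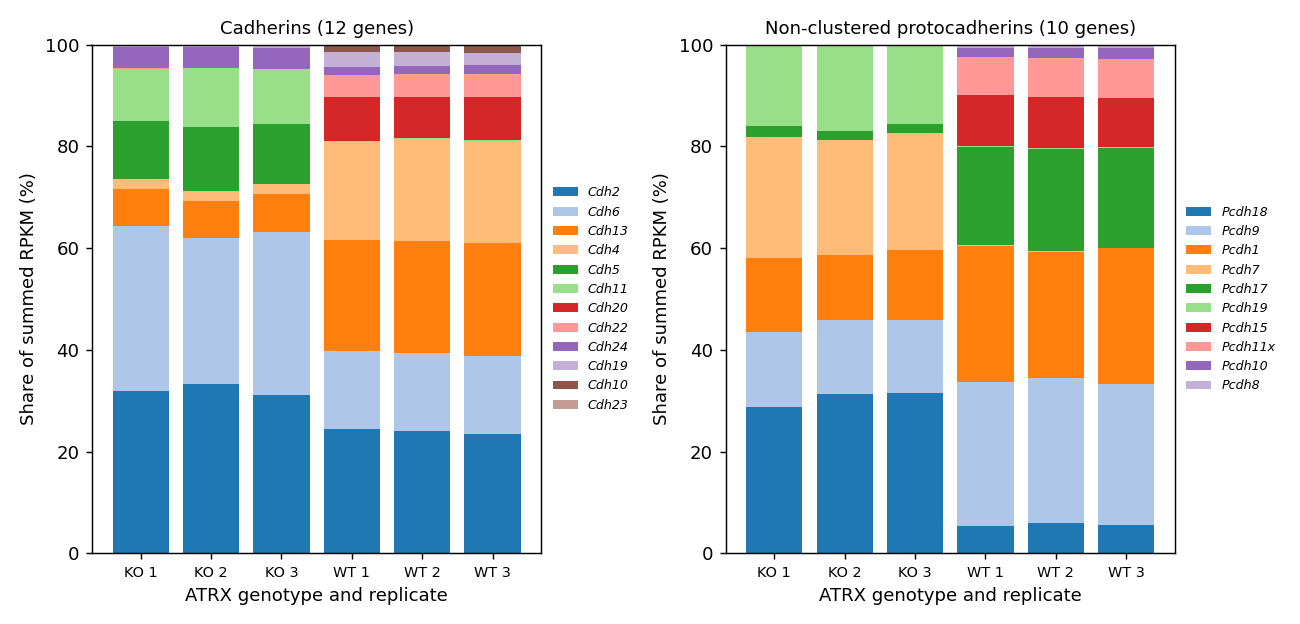
Share of summed RPKM held by each of 12 cadherins (left) and 10 protocadherins outside the clusters (right) in each library, in percent, ATRX KO replicates left of ATRX WT replicates. Within a genotype the bars look alike. Among the larger shares in ATRX KO are those of Cdh6, Cdh2, Cdh5, Cdh11, Pcdh18, Pcdh7 and Pcdh19. Among the smaller are those of Cdh13, Cdh4, Cdh20, Pcdh9, Pcdh1, Pcdh17, Pcdh15 and Pcdh11x.

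The clustered protocadherins lie in 3 neighbouring clusters on chromosome 18. Their summed level was 73.1 ± 1.48 RPKM in ATRX KO, against 166 ± 0.990 RPKM in ATRX WT (SD, n = 3 each). Of the 36 genes, 24 were tested, of which 2 rose, 20 fell and 2 gave no call. Of all genes tested, 43.6% rose and 45.9% fell. In the alpha and gamma clusters each gene has its own first exon and splices it to constant exons that all genes of the cluster use, whereas beta genes are single exons. Among members matched in GENCODE M21, the shared bases were 28.5% to 54.9% of the exons of 6 alpha genes (median 53.1%) and 31.8% to 66.8% of those of 11 gamma genes (median 45.1%), while the median of the 18 beta genes was 0%. The 28.5% is of Pcdha11, a name that 2 genes carry in GENCODE M21. Their exons were pooled, so it is not the share of 1 gene, and the next lowest alpha share was 48.6%. How reads from shared exons were assigned is not given in the sources used here, so levels of alpha and gamma genes are uncertain to that extent.

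In the alpha cluster, reads were found in ATRX KO for a single gene. Pcdhac2, a C-type member that most neurons express without the choice made for the others, had 93, 71 and 58 reads in ATRX KO, against 626, 726 and 678 reads in ATRX WT. It fell by 2.57 (SE 0.087, adjusted p = 6.8e-09), to 16.6% of the ATRX WT level. The other 6 alpha genes in the table, Pcdha2, Pcdha5, Pcdha8, Pcdha10, Pcdha11 and Pcdhac1, had 0 reads in all 3 ATRX KO libraries. In ATRX WT each had reads in all 3 libraries, between 333 for Pcdha2 and 1457 for Pcdha5 in sum, so they were at least 72.7-fold to at least 318-fold lower in ATRX KO. In RPKM the highest alpha genes in ATRX WT were Pcdhac2 with 3.18 ± 0.111, Pcdha5 with 2.37 ± 0.143 and Pcdhac1 with 1.55 ± 0.141 (SD, n = 3). The median difference of the 6 tested was -6.76 as fitted and -7.41 with the 5 genes at 0 reads set to their bounds.

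In the beta cluster the falls were large at one end of the gene order and small at the other. Of 18 genes 12 were tested, 10 fell, none rose and Pcdhb5 and Pcdhb17 gave no call. Among all genes tested 45.9% fell and 43.6% rose. Under quantile normalization Pcdhb5, Pcdhb16 and Pcdhb17 were instead called higher, by 0.60 (adjusted p = 0.0013), 0.50 (adjusted p = 0.00087) and 0.70 (adjusted p = 0.00024). The largest falls were those of Pcdhb8 with 11 reads in ATRX KO against 1525 in ATRX WT (-6.04, SE 0.17), Pcdhb10 with 36 in ATRX KO against 2255 in ATRX WT (-5.19, SE 0.13), and Pcdhb6 with 7 in ATRX KO against 629 in ATRX WT (-5.15, SE 0.15). Along the chromosome, the 9 genes from Pcdhb2 to Pcdhb11 had differences of -6.04 to -0.05, with 8 of 9 below -2. Together they stood at 2.16, 2.63 and 1.95 RPKM in ATRX KO, against 25.8, 25.7 and 26.0 RPKM in ATRX WT, which is 8.69% of the ATRX WT level. The exception was Pcdhb5, at 1.34, 1.74 and 1.24 RPKM in ATRX KO, against 1.49, 1.56 and 1.37 RPKM in ATRX WT, whose groups overlapped (log2 difference -0.05, adjusted p = 0.75).

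The 9 beta genes from Pcdhb14 to Pcdhb22 had differences of -2.57 to 0.95, with a median of -0.27 and 4 above 0. Their sum was 7.14, 7.44 and 7.72 RPKM in ATRX KO, against 10.1, 10.1 and 9.50 RPKM in ATRX WT, or 75.2%. This split of the cluster was made after the values were seen and has no test. Pcdhb17 had 1.46, 1.57 and 1.62 RPKM in ATRX KO, against 1.65, 1.33 and 1.50 RPKM in ATRX WT and overlapped (0.06, adjusted p = 0.59), and its difference was -0.02 without ATRX WT replicate 2 and -0.14 with libraries scaled by reads in the table. Pcdhb16 fell by 0.27 (adjusted p = 0.025), a call that was lost without ATRX KO replicate 1 (adjusted p = 0.065), ATRX WT replicate 2 (0.087) or ATRX WT replicate 3 (0.052) and whose sign turned under quantile normalization, as given above. Pcdhb22 fell by 0.57 (adjusted p = 0.0024), and its difference was 0.10 under quantile normalization. The highest beta genes were Pcdhb17 with 1.55, Pcdhb5 with 1.44 and Pcdhb22 with 1.11 RPKM in ATRX KO, and Pcdhb10 with 6.74, Pcdhb8 with 5.54 and Pcdhb2 with 4.10 RPKM in ATRX WT. No gene was among the leading 3 in both.

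The gamma cluster was dominated by 1 gene in both genotypes. Pcdhgc3, a C-type member, had 59.9, 58.2 and 56.7 RPKM in ATRX KO, against 106, 104 and 104 RPKM in ATRX WT. That was 92.7% of gamma RPKM in ATRX KO, against 88.0% in ATRX WT, and the most of any protocadherin in either genotype. It fell by 0.85 (SE 0.029, adjusted p = 6.5e-09), without overlap but not past a log2 difference of 1. Its exons are among those shared in the cluster, so reads of other gamma genes could be part of its level, and this was not tested. Pcdhga12 had 4, 5 and 6 reads in the ATRX WT libraries, so reads from the shared exons were not credited to every gamma gene.

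Below Pcdhgc3 the gamma genes went both ways. Pcdhga6 had 1.53, 1.78 and 1.51 RPKM in ATRX KO, against 0.247, 0.206 and 0.200 RPKM in ATRX WT, a rise of 2.81 (SE 0.13, adjusted p = 4.8e-08). Pcdhgb6 had 1.48, 1.53 and 1.73 RPKM in ATRX KO, against 0.336, 0.415 and 0.496 RPKM in ATRX WT, a rise of 1.91 (SE 0.15, adjusted p = 2.1e-06). No other clustered protocadherin rose among the 24 tested, except the 3 beta genes that were called higher under quantile normalization. With Pcdhgc3, these 2 genes were the highest gamma genes in ATRX KO. In ATRX WT the highest after Pcdhgc3 were Pcdhgb8 with 6.83 ± 0.107 and Pcdhga5 with 3.00 ± 0.0726 RPKM (SD, n = 3). Both fell, Pcdhgb8 by 4.62 (SE 0.093) with 94 reads in ATRX KO against 3715 in ATRX WT, and Pcdhga5 by 5.60 (SE 0.26) with 18 reads in ATRX KO against 1602 in ATRX WT. Pcdhga4 fell by 3.07 (SE 0.15). Without Pcdhgc3, Pcdhga6 and Pcdhgb6 held 34.8% and 34.4% of gamma RPKM in ATRX KO, against 1.52% and 2.90% in ATRX WT, and Pcdhgb8 held 5.78% in ATRX KO, against 47.8% in ATRX WT. Untested for its low level, Pcdhga12 had 51, 34 and 43 reads in ATRX KO, all above its 4 to 6 reads in ATRX WT.

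**Figure D3:**
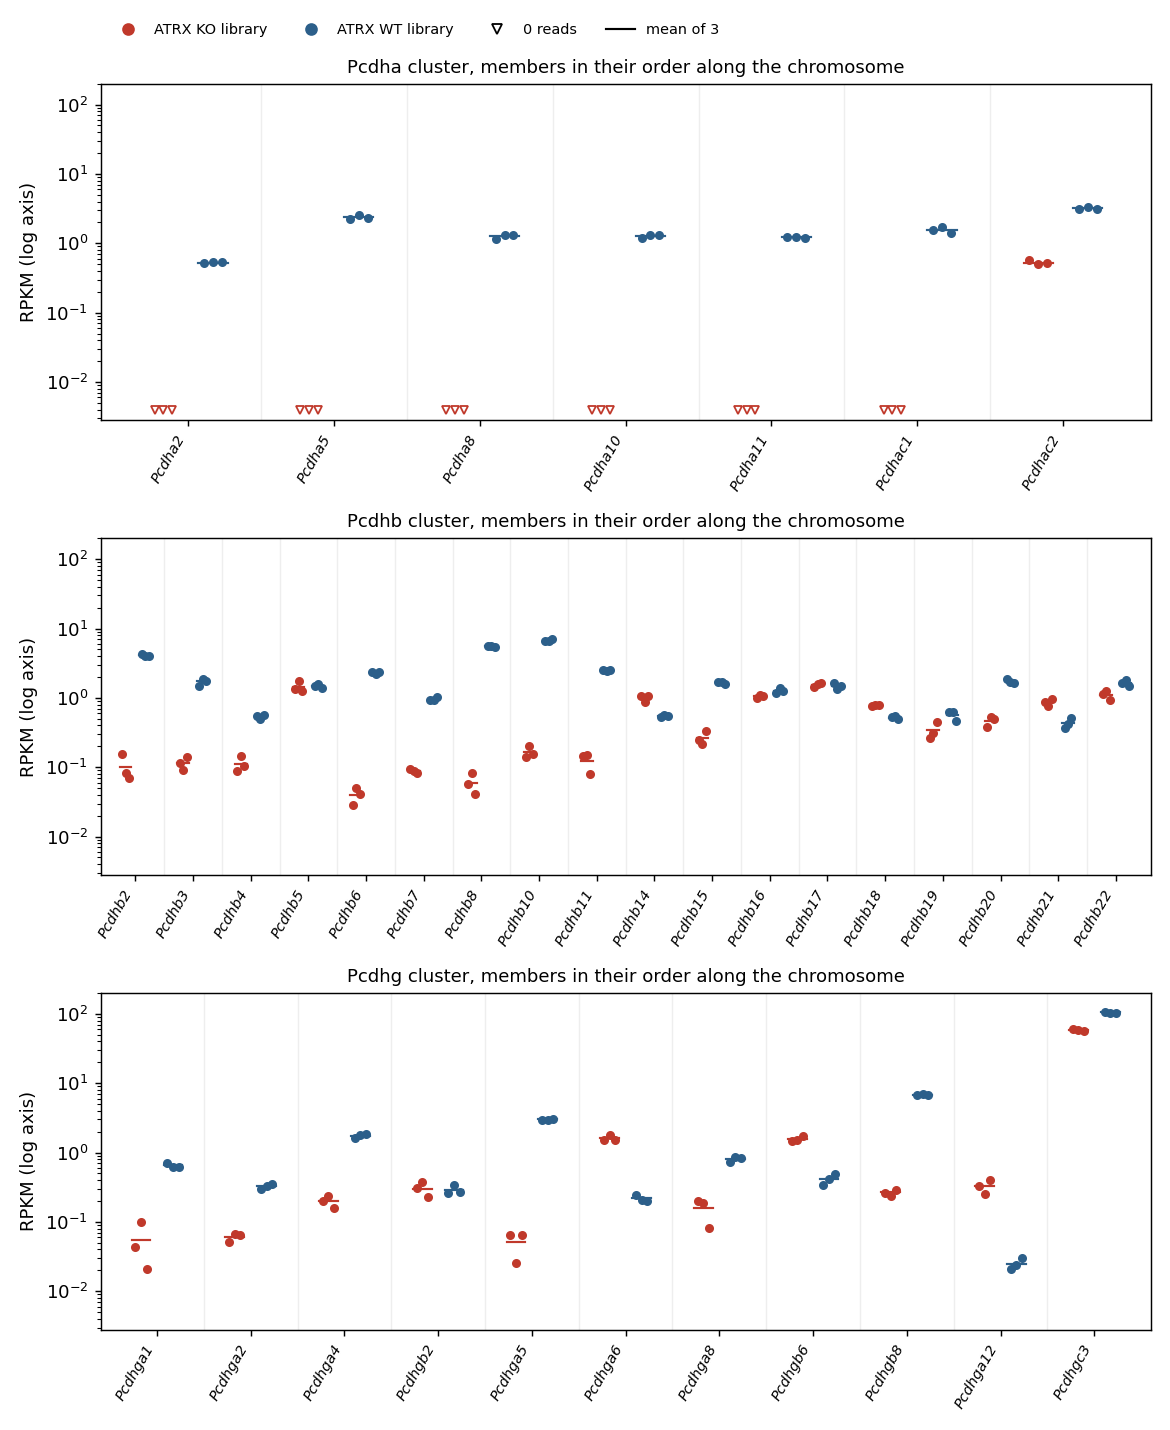
Level of each clustered protocadherin in RPKM on a log axis, in the order of the genes along the chromosome, with 1 point per library, ATRX KO left of ATRX WT, bars at the mean of 3 and open triangles for 0 reads. In ATRX KO 6 of 7 alpha genes are at 0 reads, the beta genes from Pcdhb2 to Pcdhb11 are low except Pcdhb5, and Pcdhga6, Pcdhgb6 and Pcdhga12 stand above ATRX WT.

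Proteins that cadherins and protocadherins work with were taken as lists. Of all genes tested 43.6% rose and 45.9% fell, and the counts of calls in each list, here and below, stand beside those shares. In the cadherin-catenin complex 2 genes rose and 6 fell among 10 tested, 2 gave no call, and the median was -0.35. Ctnnb1, beta-catenin, which links classical cadherins to alpha-catenin, had 228, 219 and 225 RPKM in ATRX KO, against 218, 225 and 221 RPKM in ATRX WT (0.02, adjusted p = 0.55). The groups overlapped, though Ctnnb1 was lower by -0.18 with libraries scaled by reads in the table, a scaling that moves the median of all genes by -0.20, and by -0.33 under quantile normalization. Of the alpha-catenins, Ctnna1, the widespread form, rose by 0.83, while Ctnna2, the neural form, had 1 read in ATRX KO and 722 in ATRX WT. Ctnnd2, the neural delta-catenin, had 0 reads in ATRX KO against 17568 in ATRX WT, and Arvcf, of the same family, fell by 5.11. Both neural catenins were low in the libraries in which Cdh4 and Cdh20 were low, which with 2 groups is so for any genes that fell. Jup, or plakoglobin, rose by 0.21, but differed by 0.01 when scaled by reads in the table, and Ctnnal1 gave no call (0.01), but was called lower by the same scaling (-0.18) and higher under quantile normalization (0.18). Of the desmosome plaque genes, Pkp1 rose by 1.75 and Pkp2 fell by 0.82, a difference that was 0.01 under quantile normalization.

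Of the atypical and related cadherins, 5 were tested, with 1 rise and 4 falls. Celsr3 and Celsr2, seven-pass cadherins of planar polarity in axons and ependyma, fell by 8.09 and 6.22, with 10 and 134 reads in ATRX KO against 6095 and 15593 in ATRX WT. Dchs1, the ligand of Fat4, fell by 1.16, and Clstn1, a calsyntenin, rose by 0.46. Among the repressors of the E-cadherin gene, Twist2, Twist1 and Snai1 rose by 8.09, 6.72 and 6.32. Snai1 stood at 36.1, 32.0 and 32.1 RPKM in ATRX KO, against 0.437, 0.357 and 0.350 RPKM in ATRX WT, while Zeb1 fell by 1.83. Of the 8 tested repressors 5 rose and 3 fell, where 89.5% of all genes tested rose or fell. Fibroblast markers rose in the same libraries, and their part was not tested.

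Of 8 tested proteases that release cadherin ectodomains and tails, 5 rose and 3 fell, and the median difference was 0.40. Psen2, a catalytic subunit of gamma-secretase, rose by 2.04, the sheddase Adam17 by 0.71 and Adam9 by 0.42. Adam10, the main sheddase of N-cadherin, differed by -0.09 (adjusted p = 0.047), a call that was lost without ATRX KO replicate 1 (adjusted p = 0.12), ATRX WT replicate 1 (0.11) or ATRX WT replicate 2 (0.16), with the replicate number as a block (0.055) and without the mean-variance trend (0.095). Effectors of protocadherins gave 4 rises and 6 falls of 10, where 89.5% of all genes tested were called. The kinase Fyn fell by 1.58, and within the WAVE complex the neural subunits Cyfip2 and Wasf1 fell by 7.09 and 1.47, while Wasf2 and Cyfip1, the widespread forms, rose by 1.95 and 0.39.

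Regulators of the clustered loci, which act on promoter choice, chromatin and silencing, were also measured. Among the 13 tested there were 4 rises, 6 falls and 3 genes with no call, where 89.5% of all genes tested were called. Their differences lay between -0.80 and 0.97. With libraries scaled by reads in the table, which moves the median of all genes by -0.20, 2 rose and 9 fell. Ctcf, which with cohesin joins a chosen promoter to its enhancer, had 27.1, 27.0 and 26.3 RPKM in ATRX KO, against 34.3, 34.3 and 32.9 RPKM in ATRX WT, without overlap. It fell by 0.34 (SE 0.030, adjusted p = 5.4e-06) and was named after its value was seen. The methyltransferase Dnmt3a fell by 0.80, Setdb1, which lays a repressive histone mark at the clusters, by 0.47, and the cohesin subunit Stag2 by 0.35. Rest, a repressor of neuronal genes, rose by 0.97, Wiz by 0.34 and Stag1 by 0.20, the last with 0.01 when scaled by reads in the table. The cohesin core genes Smc1a and Smc3 and the X-inactivation factor Smchd1 gave no call, at 0.02, -0.02 and 0.05, but differed by -0.18, -0.21 and -0.15 under that scaling.

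**Figure D4:**
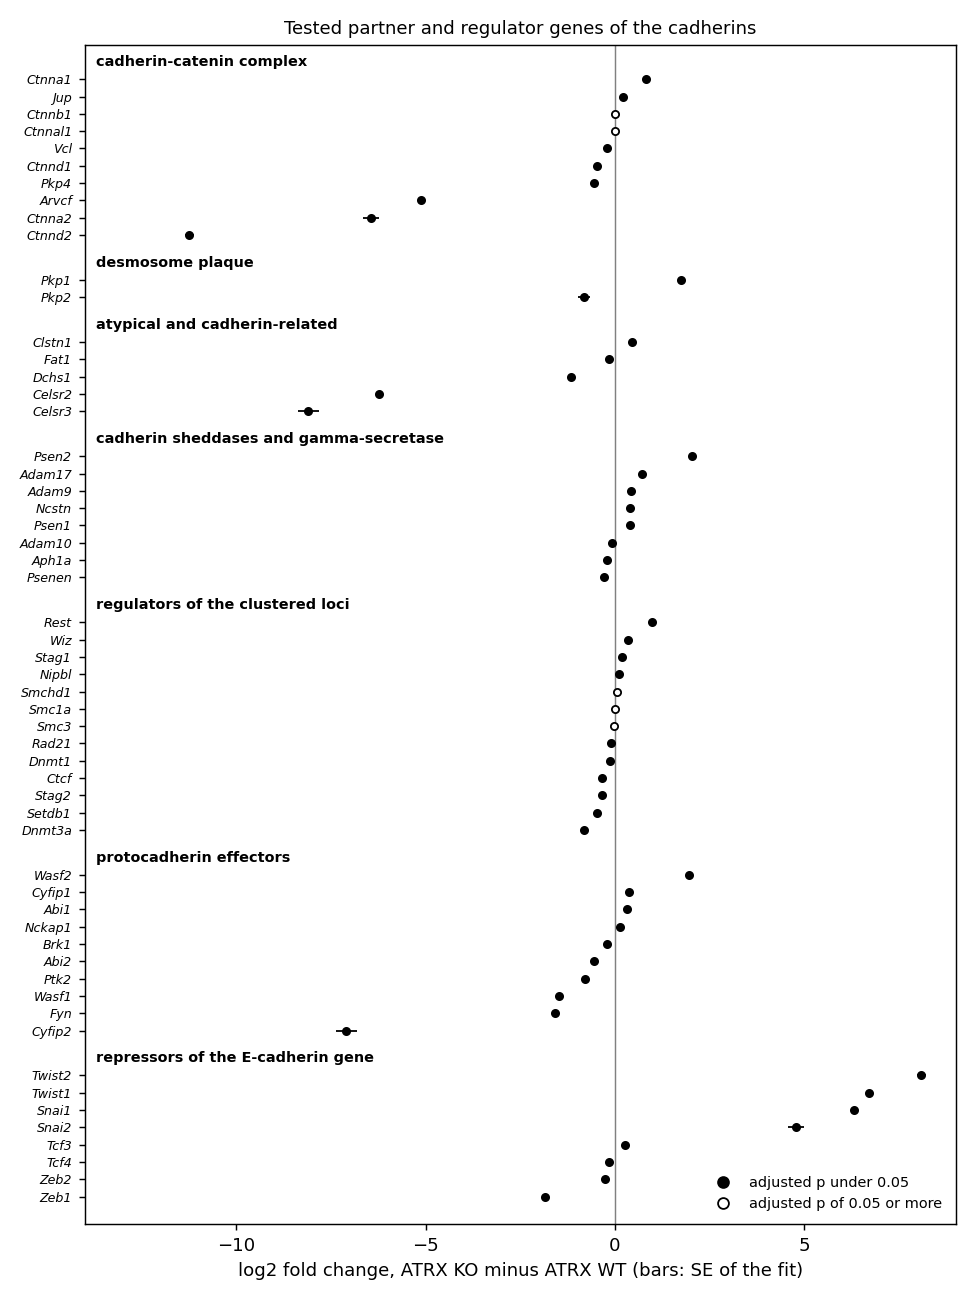
Difference in log2 RPKM, ATRX KO minus ATRX WT, with the SE of the fit, for the tested genes of 7 lists of partners and regulators. Filled points had an adjusted p under 0.05 and open points did not; Ctnnd2, Celsr3, Ctnna2 and Cyfip2 lie far to the left and Twist2, Twist1 and Snai1 far to the right, while regulators of the clustered loci lie between -0.80 and 0.97.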

How the data were processed

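The submitters' processing notes list edgeR 3.20.9, HTSeq 0.11.2, STAR 2.5.3a, Trim Galore and FastQC, and the builds mm9 and mm10, with no role or order. The authors deposited log2 RPKM of 13069 genes in 6 libraries; the filter that set these rows and the counting mode are not given in the sources used here. The values fell on whole-read steps, from which reads, gene lengths and library sizes were recovered for 100% of genes (tolerance 0.0001 reads, mean prior count 2 reads). RPKM in the text is recovered reads over the authors' lengths and library sizes, with no prior.

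Genes that reached log2 RPKM 0 in 3 or more of the 6 libraries were tested on the deposited log2 values with limma 3.58.1 in R 4.3.3 (trended empirical Bayes, two-sided, Benjamini-Hochberg over 12201 genes, threshold 0.05), after a check on simulated data. A group at 0 reads gets a bound against 3 reads over the group, and one at 1 to 3 reads an exact 95% interval. Intervals and bounds cover counting error only. Gene positions are from GENCODE M21, matched by symbol.

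The members and lists were chosen with earlier results of these data known. Named were all members outside the clusters; per cluster, the 3 highest in each genotype and the 3 largest rises and falls past the threshold; and from the other lists up to 3 rises and falls and members without a call. Same-numbered libraries were checked for pairing. The alternatives left out each library, changed filter, scaling, prior count or variance model, added the replicate number, or used treat.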

Additional observations from a re-analysis of the deposited data

How the results depend on the processing

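Of the 43 tested members, 37 kept their direction and call in all 16 alternatives and 6 did not, in the settings where each could be fitted. The partner and regulator genes held less well: of 41 named, 16 kept both and 25 did not. Without each library in turn, members called higher numbered 7 to 7, members called lower 33 to 34 and all genes called 10645 to 10947. Members called higher numbered 12 without a filter, where Cdh23, Pcdhb14, Pcdhb18, Pcdhb21 and Pcdhga12 joined the 7, and 10 under quantile normalization, where Pcdhb5, Pcdhb16 and Pcdhb17 (0.70) joined them and 32 were called lower. Members called lower numbered 15 under the stricter filter of log2 RPKM of at least 2, which left 20 members to test. All genes called numbered 3980 against a log2 difference of 1 in treat, where Cdh24, Pcdhb16, Pcdhb22 and Pcdhgc3 lost their calls. Partner and regulator genes lost calls there too, among them Ctnna1, Clstn1, Adam17, Adam9, Cyfip1, Rest, Wiz, Dnmt3a, Setdb1, Stag2 and Ctcf. Under quantile normalization Pcdhb16 was 0.50, Pcdhb22 0.10, Pcdhb5 0.60, Ctnnb1 -0.33, Pkp2 0.0097, Smc1a -0.15 and Smchd1 -0.052, each with the opposite sign to that reported. Scaled by reads in the table, Pcdhb17 was -0.14, Ctnnb1 -0.18, Ctnnal1 -0.18, Smc1a -0.18 and Smchd1 -0.15, again with the sign turned. That scaling moves the median of all genes by -0.20. With 1 library left out, differences crossed 0 for Pcdhb17 (-0.022 to 0.13, negative without ATRX WT replicate 2), Pcdhb5 (-0.19 to 0.053, positive without ATRX KO replicate 3), Ctnnal1 (-0.031 to 0.068), Smc1a (-0.0048 to 0.038) and Smc3 (-0.050 to 0.0089); the cause was not tested for any of these. With the replicate number as a block, 7 members were called higher and 34 lower, and 10851 of all genes were called, while Adam10 lost its call (adjusted p = 0.055). Same-numbered libraries deviated together with correlations of -0.05, 0.05 and -0.04, so the numbers do not pair the libraries. Depth limits the members at or near 0 reads in ATRX KO, whose fitted differences move with the prior count: Cdh20 ranged from -12.07 to -8.07 and Pcdh11x from -11.07 to -7.08 over the alternatives.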
